A study of Saccharomyces cerevisiae with 8 samples.

Results

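The regions described here are the intergenic regions named for the yeast genes RPL1 to RPL33, which encode proteins of the large ribosomal subunit. They were picked by name from an array of intergenic DNA: 58 region names were sought, 52 were among the 6399 array features, and 51 carried at least 1 value. The 2 names from chromosome IX, RPL2B and RPL16A, are spelled on the array with a small i in place of a capital and were counted as members. The regions named for RPL7B, RPL8B, RPL10, RPL22A, RPL28 and RPL33A were not among the features, and that for RPL4A had no value on any array.

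Large-subunit proteins fold around the 25S, 5.8S and 5S ribosomal RNAs, and most of them are encoded in yeast by a pair of duplicated genes. Their genes are transcribed by RNA polymerase II from promoters bound by Rap1, Fhl1 and Ifh1, and inhibition of the TOR kinase by rapamycin shuts this transcription down. RNA polymerase III (Pol III) makes the tRNAs and the 5S RNA, so the regions studied here are not its known genes. TFIIIC binds the internal promoters of tRNA genes, TFIIIB is placed by TFIIIC and recruits the polymerase, and Maf1 represses the polymerase when nutrients fail.

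The series measured by chromatin immunoprecipitation on arrays where 4 tagged proteins sat on the genome of Saccharomyces cerevisiae: Brf1-13myc and Bdp1-13myc of TFIIIB, the t95-13myc subunit Tau95 of TFIIIC, and the largest polymerase subunit, 3HA-C160. Cells grew exponentially in rich YPD medium and were fixed untreated (0 min) or after 30 min in rapamycin at 0.2 ng per µl. Each protein and time has 1 deposited sample, called an array here, so there are 8 arrays and every comparison is between single arrays without a replicate check. Each array carried DNA precipitated from wild-type cells in the Cy5 channel and from cells lacking MAF1 in the Cy3 channel, per the labels.

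A value is a log2 relative signal whose zero is, per the design text, the median of loci that the Pol III machinery does not bind. Which strain and which reference stand behind it is unknown, so nothing is said here of the MAF1 deletion. The 8 arrays hold 5760 to 6282 values each. Missing values were most frequent for Brf1 at 30 min, at 639. Medians over all features lay between -0.08 and 0.17, and features named for tRNA genes had medians of 2.01 to 3.28. Brightness was not corrected for the probe, so differences in level between regions do not rank them by occupancy, whereas a change with rapamycin is read on the same probe.

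A region lies on the side of higher coordinates of the gene that names it. It is therefore upstream of a gene on the Crick strand (name ending in C) and downstream of one on the Watson strand (name ending in W). This placement was checked on genes bordered by a Pol III gene. The median on the Bdp1 array at 0 min was 2.90 where the Pol III gene was next on the side of higher coordinates (n = 228) and 0.14 where it was next on the other side only (n = 196). Of the 52 members, 25 are upstream regions and hold the promoter of their gene, and 27 are downstream regions. In the gene order of RefSeq assembly R64, 0 members border a tRNA gene or other Pol III gene.

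In growing cells the member regions as a group lay close to the array zero for TFIIIB and the polymerase and a little above it for TFIIIC. The median Tau95 level over 51 members was 0.35, with quartiles of -0.30 and 1.16. C160 had a median of 0.05 (n = 51) between quartiles of -0.42 and 0.82. Brf1 had 0.11 (n = 51, quartiles -0.56 and 0.86), and Bdp1 had 0.10 (n = 50, quartiles -0.75 and 1.08). Over all features the medians of these proteins, in the same order, were 0.05, -0.08, -0.01 and 0.08. A level of 1 or more was found at 13 of 50 members for Bdp1, where 28.8% of all features reached it, and at 10 of 51 for Brf1, against 22.7%. It was found at 12 of 51 for C160, against 22.9%, and at 15 of 51 for Tau95, against 25.9%. These shares were near those of all features.

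**Figure D1:**
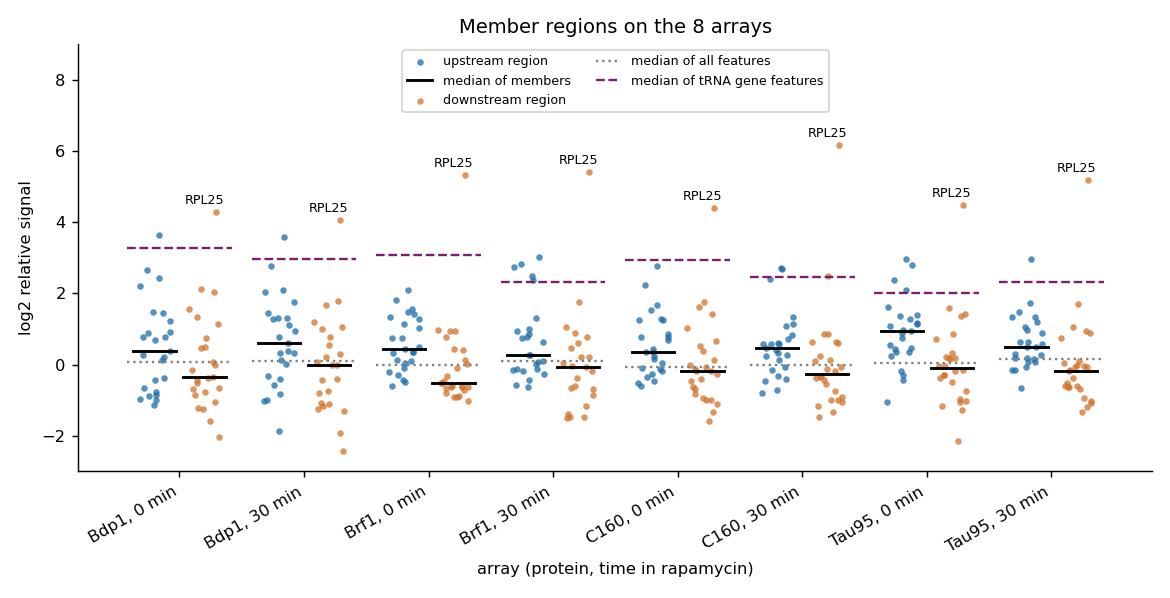
Log2 relative signal (vertical axis) of each member region on the 8 arrays, with regions upstream of their gene in blue and downstream ones in orange; black bars are medians over members, dotted lines medians of all features and dashed lines medians of tRNA gene features. Most members lie around 0 and below the tRNA gene medians of 2.01 to 3.28, and the region downstream of RPL25 stands above them on every array, between 4.06 and 6.16.

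After 30 min of rapamycin the group's median Tau95 level was 0.09 (n = 51). That of C160 was 0.13 (n = 51), that of Brf1 0.09 (n = 48) and that of Bdp1 0.30 (n = 49). Tau95 reached 1 or more at 10 members, against 27.9% of all features, and C160 at 8, against 25.4%. Brf1 did so at 9, against 27.8%, and Bdp1 at 16, against 29.5%. Of the 46 members with a value on every array, 5 were at 1 or more on all 8 (10.9%, against 16.5% of 5487 features) and 9 were below 0 on all 8 (19.6%, against 24.1%).

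The brightest member by far was the region downstream of RPL25 (iYOL127W), whose protein (uL23) sits at the exit of the nascent chain tunnel and is a docking site for the signal recognition particle. Its levels at 0 and 30 min were 4.29 and 4.06 for Bdp1, 5.32 and 5.40 for Brf1, 4.41 and 6.16 for C160, and 4.49 and 5.19 for Tau95. All 8 values stood above those of every other member, the next highest of which lay between 2.09 and 3.62 depending on the array. It was thus in the range of tRNA genes. The identity of this probe could not be checked here, so its values are those of the array feature with this name. On the Bdp1 arrays 59 of 245 tRNA gene features were brighter at 0 min and 64 at 30 min, and on the C160 arrays 28 and 0. On the Brf1 arrays 1 of 245 and 2 of 241 were brighter, and on the Tau95 arrays 5 and 2 of 245. In the R64 gene order the region lies between RPL25 and MDH2, a malate dehydrogenase gene that faces it, and the nearest Pol III gene is 19 genes away. Among 4403 other gene regions that border no Pol III gene and have all 8 values, 16 were at 4 or more on every array, so such brightness was not seen here alone. The region upstream of RPL25, named for its neighbour YGK3, was dimmer at 0 min, with a Tau95 level of 1.33, C160 of 1.01, Brf1 of 0.14 and Bdp1 of 1.23.

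Several of the other bright members lie between divergent genes and hold a pair of promoters. The region of RPL24B (iYGR148C), whose protein (eL24) joins the subunit late and reaches across to the small subunit, had levels of 3.62 and 3.59 for Bdp1 at 0 and 30 min, 2.09 and 2.36 for Brf1, 2.76 and 2.67 for C160, and 2.97 and 2.95 for Tau95. These pairs of values differed little between the times. The region (iYMR142C) between RPL13B and the small-subunit gene RPS16A had 2.67 and 2.76 for Bdp1, 1.81 and 2.83 for Brf1, 2.23 and 2.41 for C160, and 2.37 and 1.49 for Tau95. It was higher at 30 min for Brf1 and lower for Tau95. The region upstream of RPL20A (iYMR242C), whose protein (eL20) lies on the solvent side, had 2.42 and 2.09 for Bdp1, 1.48 and 2.48 for Brf1, 1.68 and 2.71 for C160, and 2.08 and 1.71 for Tau95.

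At the dim end were mostly downstream regions. Among members with all 8 values, 7 of 21 downstream (33.3%) and 2 of 25 upstream (8.0%) were below 0 throughout, against 24.1% of all features. The upstream ones were RPL15A and RPL22B. The region downstream of RPL32 (iYBL092W) had a Tau95 level of -2.16 at 0 min and -1.34 at 30 min. C160 there was at -1.59 and -1.35, Brf1 at -0.89 and -1.49, and Bdp1 at -1.59 at 0 min, with no value at 30 min. That downstream of RPL2B (spelled iYiL018W), whose protein (uL2) lies close to the peptidyl transferase centre, had Tau95 levels of -1.04 and -1.08, C160 of -1.12 and -0.92, Brf1 of -1.04 and -0.87, and Bdp1 of -2.03 and -2.43. Both lie between converging genes and were below 0 wherever they had a value. RPL4B, a gene for a protein (uL4) that lines the exit tunnel, had 0 min levels downstream of it of -1.29 for Tau95, -1.34 for C160, -0.73 for Brf1 and -1.05 for Bdp1. The low Brf1 levels included RPL21A at -0.90 and RPL27B at -0.91, and neither had a Brf1 value at 30 min. RPL23B was low for Bdp1, at -1.26, and RPL13A for Tau95, at -1.16.

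Upstream members were brighter than downstream members on all 8 arrays. The Tau95 median at 0 min was 0.93 upstream and -0.10 downstream, and at 30 min 0.49 and -0.17. For C160 these medians were 0.35 and -0.18 at 0 min, and 0.45 and -0.26 at 30 min. For Brf1 they were 0.45 and -0.53, then 0.28 and -0.07, and for Bdp1 0.39 and -0.36, then 0.61 and -0.01. The Bdp1 gap at 0 min was 0.75, and 0.40 over the 46 members with all values. Each upstream median rests on 25 regions and each downstream median on at most 26. Other gene regions bordering no Pol III gene showed the same order. Their Tau95 median at 0 min was 0.20 upstream (n = 2593) and -0.42 downstream (n = 2524). For C160 it was -0.02 and -0.42, for Brf1 0.05 and -0.37, and for Bdp1 0.15 and -0.38. The order is therefore not particular to ribosomal protein genes. The lengths of the array's regions were not used here, and their part in the order was not tested.

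The 2 flanks of the same gene were set side by side for 46 genes whose other flank is also an array region. The other flank is named for the neighbouring gene and is no member, except that RPL24A and RPL30 share a single promoter region. The Tau95 level at 0 min was higher upstream at 33 of 45 genes (73.3%), with a median difference, upstream minus downstream, of 1.33. Among 3766 other genes 68.6% were higher upstream, with a median of 0.66. C160 was higher upstream at 31 of 45 genes (68.9%, against 66.3% of other genes), by 0.57 in median against 0.40. Brf1 was higher at 36 of 45 (80.0%, against 66.7%), by 0.82 against 0.45, and Bdp1 at 29 of 43 (67.4%, against 65.0%), by 0.79 against 0.52. For Tau95, C160 and Bdp1 the shares at 0 min were thus near those of other genes. At 30 min Tau95 was higher upstream at 32 of 42 genes (66.3% of other genes), by 0.95 against 0.47, and C160 at 34 of 44 (64.7%), by 0.69 against 0.40. Brf1 was higher at 27 of 38 (64.5%), by 0.99 against 0.45, and Bdp1 at 28 of 43 (65.4%), by 1.22 against 0.52. Bright upstream flanks included that of RPL26B (uL24, at the tunnel exit), with 0 min levels of 2.82 for Tau95, 1.06 for C160, 1.91 for Brf1 and 3.04 for Bdp1. That of RPL17B (uL22, also at the tunnel) had 2.68, 2.16, 1.76 and 2.45 in this order, and that of RPL3 (uL3, at the peptidyl transferase centre) 2.19, 1.83, 1.23 and 1.67. These 3 genes were chosen after their values were seen.

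**Figure D2:**
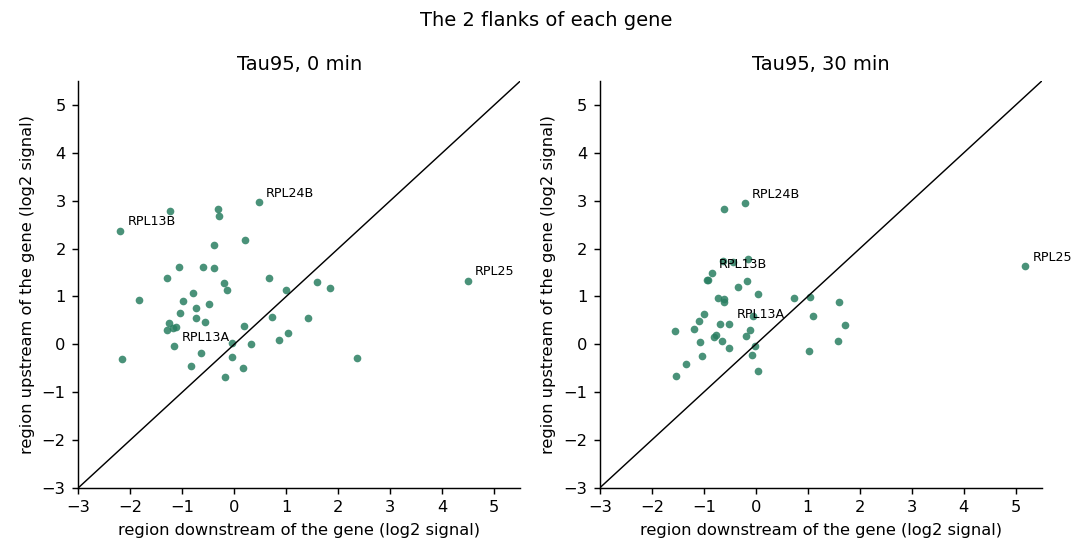
Log2 relative signal of Tau95 in the region upstream (vertical axis) against the region downstream (horizontal axis) of each gene, at 0 min and 30 min; each point is 1 gene and the line marks equal levels. At 33 of 45 genes at 0 min and 32 of 42 at 30 min the point lies above the line, where other genes had 68.6% and 66.3%, and RPL25 lies far to the right of it.

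In growing cells the Tau95 value was above that of each other protein, taken singly, at most upstream members. This comparison of levels was chosen after the data were seen. Over the 25 upstream members the level of Tau95 minus that of C160 had a median of 0.33 at 0 min (22 of 25 above 0), while other upstream gene regions had 0.07 (55.6% above 0) and all features -0.05. Tau95 minus Brf1 was 0.33 (19 of 25), against 0.04 at other upstream regions, and Tau95 minus Bdp1 was 0.29 (16 of 25), where the others had 49.9% above 0. At 30 min these medians were 0.20 (15 of 25), 0.02 (13 of 25) and -0.04 (12 of 25). Other upstream regions then had 0.07 (55.3% above 0), 0.15 (61.6%) and 0.13 (56.3%). Downstream members had 0.02, 0.07 and -0.09 at 0 min. Tau95 was also highest at upstream regions of small-subunit genes, so this is not particular to the members. Their 0 min medians were 0.86 for Tau95, 0.23 for C160, 0.28 for Brf1 and 0.42 for Bdp1. The arrays differ in spread, with median absolute deviations at 0 min of 0.91, 0.74, 0.71 and 0.96 in this order. The part of the spread in these differences was not tested.

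The main comparison of the design asks how occupancy changes with rapamycin, and at these regions it was Tau95 that shifted. Over 51 members the median change of Tau95 (30 min minus 0 min) was -0.25, with quartiles of -0.39 and 0.10, whereas all features had 0.19. Tau95 was lower at 34 of 51 members (66.7%), against 35.0% of all features. Its change was -0.35 over the 25 upstream members, 18 of them lower, and -0.13 over the 26 downstream members, 16 of them lower. Other gene regions had 0.12 upstream (40.8% lower) and 0.26 downstream (30.1% lower). The gap between the sides, -0.22, was -0.047 with arrays of equal spread. Within genes, the Tau95 change upstream minus that downstream had a median of -0.24 (n = 42), and other genes had -0.16. Features of tRNA genes, where TFIIIC binds, had 0.26, with 28.6% lower. Small-subunit gene regions had -0.32 upstream and -0.13 downstream, and those of the remaining large-subunit and stalk genes -0.29 and 0.01. The lower Tau95 values upstream are therefore not particular to the members. The genes were chosen with the sign of the members' median Tau95 change known, so the sign is a description. The base of the logarithm could not be shown from the values of the Tau95 array at 30 min.

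For the other 3 proteins the group moved little. C160 had a median change of 0.11 (n = 51) between quartiles of -0.31 and 0.29. Brf1 had 0.04 (n = 48, quartiles -0.27 and 0.28), and Bdp1 had -0.03 (n = 48, quartiles -0.27 and 0.30). All features had medians of 0.09, -0.03 and 0.04 in this order, and tRNA gene features had -0.34, -0.73 and -0.21. The lower values of these proteins at tRNA genes thus had no counterpart in the median here. The levels at 0 min were far apart, however, with medians of 2.95, 3.06 and 3.28 at tRNA gene features. Members had 0.05, 0.11 and 0.10 in this order, and the part of this low start was not tested. Bdp1 was lower at 25 of 48 members (45.2% of all features), Brf1 at 22 of 48 (52.1%) and C160 at 23 of 51 (42.1%). The sides differed for Bdp1, with a median change of 0.10 upstream and -0.22 downstream, where other gene regions had 0.07 and 0.06. Over the 46 members with all values the gap fell from 0.32 to 0.20. At 30 of 41 genes with both flanks, the Bdp1 change was higher upstream than downstream, by a median of 0.30, against 51.8% of other genes and 0.02.

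**Figure D3:**
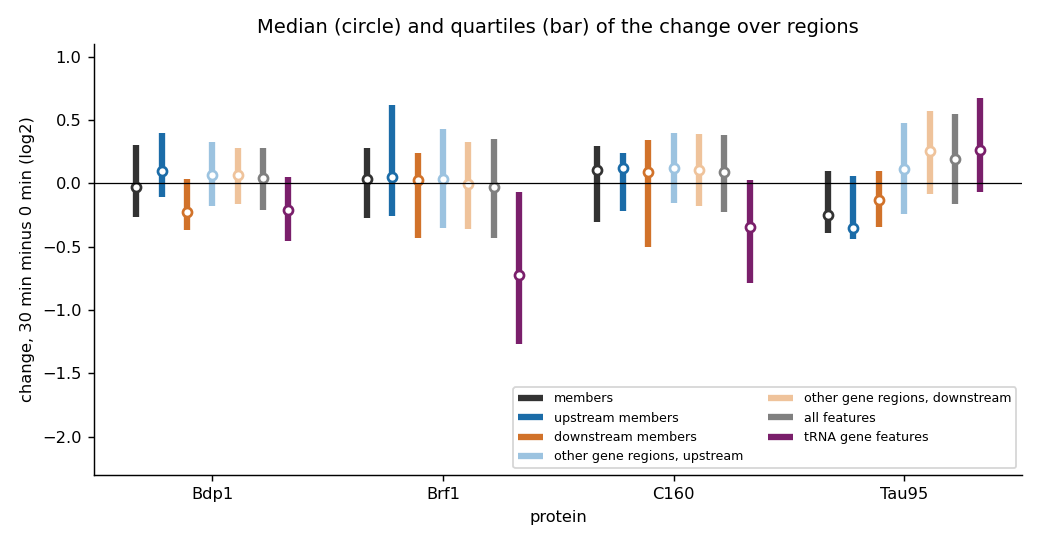
Change with rapamycin on the log2 scale (vertical axis) for each protein (horizontal axis), as the median (circle) and quartiles (bar) over the regions of each set. The members lie near all features for Bdp1, Brf1 and C160 and below them for Tau95, at -0.25 against 0.19, while tRNA gene features are lowest for Brf1 at -0.73.

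Between proteins, at the same members, the change of Tau95 was below that of C160 by a median of -0.22 (31 of 51 below 0, against 43.5% of all features). Against Brf1 the median was -0.19 (27 of 48, against 37.2%), which was -0.078 with arrays of equal spread, and against Bdp1 it was -0.12 (27 of 48, against 40.0%). For all features these medians were above 0, at 0.10, 0.24 and 0.16. The remaining pairs differed by 0.07 for Brf1 minus Bdp1, -0.06 for C160 minus Bdp1 and 0.04 for C160 minus Brf1. The first turned to -0.0060 with centred arrays and -0.066 with equal spread. Across members the changes of 2 proteins were weakly related, with Pearson's r from -0.16 (Bdp1 and Tau95, n = 48) to 0.25 (C160 and Tau95, n = 51). All 4 proteins were lower at 4 of 46 members and higher at 5, that is 8.70% and 10.9%, against 6.96% and 15.1% of 5487 features.

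A change of 2-fold or more (1 or more in size on the log2 scale) was found at 11 of 51 members for at least 1 protein, where 24.7% of all features had one. Of these 11 members, 9 are among the 25 upstream regions (36.0%, against 22.7% of other upstream gene regions) and 2 among the 26 downstream regions (7.69%, against 19.95%). Downstream members RPL31A (-0.98), RPL6B (-0.94) and RPL13A (-0.94) for Brf1 and RPL5 (-0.93) for C160 lay just inside the limit. A small shift of the array zero would carry them past it. The split by side was not repeated with other scalings, so it holds for the deposited scale only. In all, 2 members passed the limit for more than 1 protein. No share of all features is given for this, so the count cannot be called high or low. For Tau95, 3 members were lower by this limit, against 1.81% of all features, and 0 were higher, against 6.87%. For Brf1, 5 were higher, against 5.28%, and 0 lower, against 7.10%. These Brf1 counts turn with the scaling: 3 were higher and 4 lower with each array centred on its own median, and 2 and 5 with arrays of equal spread. For C160, 2 were higher (3.36%) and 1 lower (2.17%), which turned to 1 and 2 with centred arrays and 1 and 4 with equal spread. Shares of all features are not given with these scalings, so the rescaled counts cannot be called high or low. Without RPL25 the higher count for C160 was 1. For Bdp1, 1 was higher (0.777%) and 1 lower (2.72%).

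**Figure D4:**
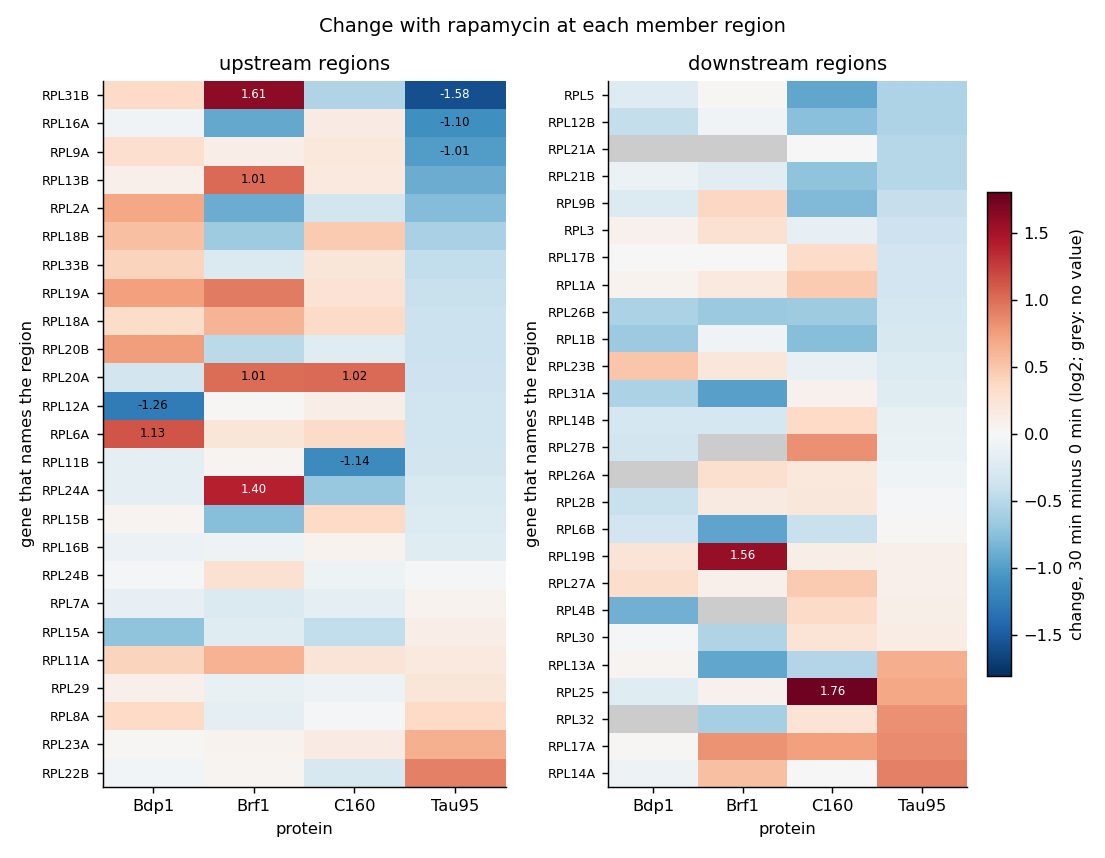
Change with rapamycin (colour, log2, 30 min minus 0 min) for each protein (columns) at each member region (rows), with upstream regions on the left and downstream regions on the right, ordered by the Tau95 change; changes of 1 or more in size are printed and grey marks a missing value. RPL31B holds the lowest Tau95 change, -1.58, and the highest Brf1 change, 1.61.

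RPL31B (iYLR406C), which encodes a protein (eL31) at the rim of the tunnel exit, moved in opposite directions for the 2 transcription factors. Tau95 went from 2.79 to 1.20 and Brf1 from 1.42 to 3.03 at its promoter, changes of -1.58 and 1.61. C160 went from 1.26 to 0.71 there and Bdp1 from 0.78 to 1.12. The region downstream of its copy RPL31A was dim throughout, from -0.39 to -0.60 for Tau95 and from -0.53 to -1.51 for Brf1.

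The other lower Tau95 values were also at promoters. At RPL16A (spelled iYiL133C, protein uL13) Tau95 went from 1.38 to 0.28, a change of -1.10, and Brf1 from 1.03 to 0.11. At RPL9A (iYGL147C, protein uL6) Tau95 went from 0.35 to -0.66, a change of -1.01, and the other proteins stayed between -0.87 and -0.16. RPL13B, just inside the limit, had -0.89 for Tau95. The highest Tau95 changes stayed under 2-fold, at 0.91 for RPL14A and RPL22B and 0.85 for RPL17A. RPL14A went from -0.96 to -0.05 and RPL22B from -1.06 to -0.15, so both came from below 0. The region downstream of RPL17A was higher for 3 proteins, from 0.94 to 1.76 for Brf1, from 1.76 to 2.50 for C160 and from 0.86 to 1.71 for Tau95, with Bdp1 at 0.75 and 0.77.

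The 5 members with higher Brf1 values past 2-fold, a count that falls to 3 or 2 with the other scalings, began with RPL31B. Next came RPL19B (iYBL027W; eL19, a bridge to the small subunit), where Brf1 went from -0.52 to 1.04, a change of 1.56, and the other proteins changed by 0.23 or less. At the promoter region shared by RPL24A and RPL30 (iYGL031C), Brf1 went from 1.32 to 2.73, a change of 1.40, while C160 went from 1.26 to 0.58. RPL30 binds its own transcript and blocks its splicing. RPL20A and RPL13B each had a Brf1 change of 1.01. These are single values on the array with the most missing features, and its part in them was not tested. The lowest Brf1 changes were -0.98 downstream of RPL31A, -0.94 downstream of RPL6B and -0.94 downstream of RPL13A.

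For the polymerase, C160 was higher downstream of RPL25 by 1.76, a ratio of 3.38, and upstream of RPL20A by 1.02. At RPL20A Brf1 was higher as well, while at RPL25 the Brf1 change was 0.07, that of Bdp1 -0.22 and that of Tau95 0.69. The next highest was RPL27B at 0.82. At the lowest end, C160 went from 1.54 to 0.40 upstream of RPL11B (iYGR085C), a change of -1.14, and from 0.51 to -0.43 downstream of RPL5, a change of -0.93. RPL5 and RPL11 proteins join the subunit together with the 5S RNA. The other RPL11 copy, RPL11A, moved the other way, from 0.35 to 0.58. Downstream of RPL9B C160 changed by -0.79.

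**Figure D5:**
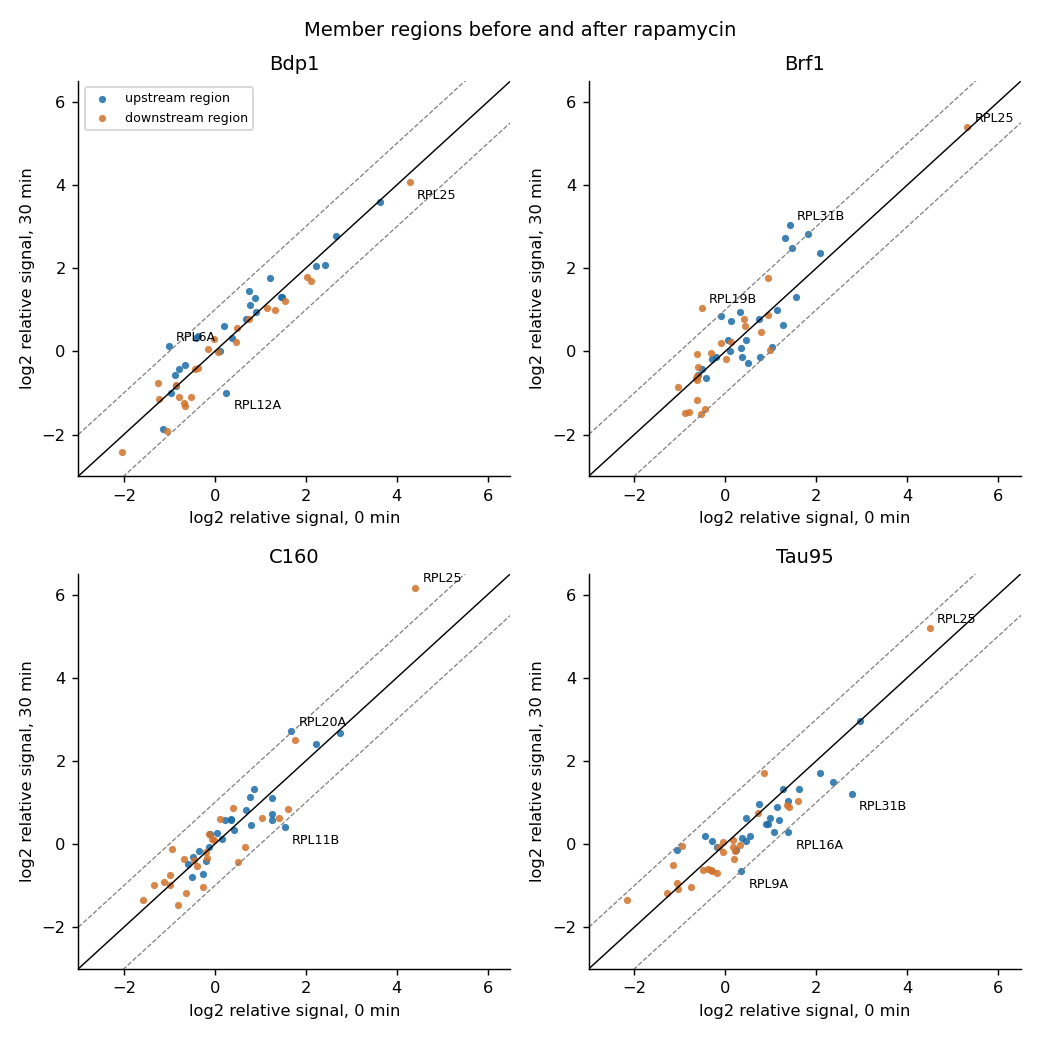
Log2 relative signal of each member region at 30 min (vertical axis) against 0 min (horizontal axis) for the 4 proteins; the solid line marks no change and the dashed lines 2-fold. Most points lie between the dashed lines, RPL25 lies above them for C160 (4.41 to 6.16) and RPL31B below them for Tau95 (2.79 to 1.20).

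Bdp1 passed 2-fold at the fewest members, 1 higher and 1 lower, where 0.777% and 2.72% of all features did so. Upstream of RPL6A (eL6) it went from -1.01 to 0.12, a change of 1.13, and upstream of RPL12A (uL11, at the base of the stalk) it changed by -1.26 from a level of 0.26. Next in order, inside the limit, were RPL20B at 0.75 and RPL19A at 0.74 on the higher side, and RPL4B at -0.86 and RPL15A at -0.73 on the lower side.

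Duplicated genes gave 20 pairs with both regions measured, 12 of them with both regions on the same side. The copies encode nearly the same protein but differ in flanking DNA, and their levels were often far apart. The absolute difference between the copies, averaged over the arrays, had a median of 1.18 for pairs on the same side and 1.57 for the 8 pairs on different sides. In these 8 pairs the upstream copy was the brighter one in only 4 or 5, depending on the array. Differences between unrelated regions were not computed, so these gaps cannot be called large for paralogues. The widest gaps were those of RPL13 (3.19), RPL31 (2.26) and RPL20 (2.06), the last with both regions upstream, and RPL20A was brighter than RPL20B on all 8 arrays. The narrowest were those of RPL23 (0.22), RPL19 (0.43) and RPL11 (0.50). RPL23A and RPL23B (uL14, on the face toward the small subunit) lay at -0.86 and -1.26 for Bdp1, and at -0.50 and -0.60 for Brf1, at 0 min.

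The 55 regions of small-subunit genes had 0 min medians of 0.13 for Tau95, -0.19 for C160, -0.18 for Brf1 and -0.09 for Bdp1. These lie below the 0.35, 0.05, 0.11 and 0.10 of the members. They had a Brf1 change of -0.10 and a Tau95 change of -0.21, 32 of 54 lower, with -0.32 upstream and -0.13 downstream. The 21 regions of the remaining large-subunit and stalk genes had a Tau95 change of -0.02, 11 of 21 lower, with -0.29 upstream (n = 10) and 0.01 downstream (n = 11). For Brf1, 2 of the 21 were higher past 2-fold (against 5.28% of all features), RPL40B (change 1.89) and RPL43B (1.33). Another 3 were lower (against 7.10%), the stalk genes RPP1B (-1.57) and RPP0 (-1.21) and RPL41A (-1.34). Such Brf1 counts turned with the scaling at the members, and other scalings are not given for these regions. Among 8 regulators of ribosomal protein genes, 6 had values, 3 in upstream and 3 in downstream regions. Brf1 was lower at these 6, by a median of -0.34, where 52.1% of all features were lower with a median of -0.03. The changes ran from -0.05 at IFH1 to -1.11 at SFP1. Downstream of SFP1, an activator of these genes under TOR control, Brf1 went from 0.84 to -0.27, and upstream of IFH1 from 1.19 to 1.14. Of 5 dedicated chaperones of large-subunit proteins, 3 had values, with Tau95 changes of 0.30 for RRB1, 0.44 for BCP1 and 0.23 for SQT1.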

How the data were processed

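The authors deposited 1 table of log2 values, 8 columns for 8 samples, each mapped to its protein and time by its title. Per the labels' design text, immunoprecipitation was done in triplicate and enrichment ratios were scaled to a median of 1 over loci that Pol III does not bind. The background correction and spot filters were not given in the sources used here. Base 2 was read from steps in the values: their strength on the Brf1 array at 30 min was 0.93 for base 2 against 0.17 for base e and 0.18 for base 10. It was 0.05, 0.05 and 0.04 on the Tau95 array at 30 min, where no base stood out. On the remaining arrays base 2 was strongest but weak, at 0.10 to 0.31, against 0.05 to 0.08 for the other bases.

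Levels, changes (30 min minus 0 min), medians, quartiles and counts were computed with pandas 2.3.3 and NumPy 2.4.6 in Python 3.11.15. With 1 sample per group no p-value was computed. The number of arrays limits the precision. Gene names and neighbours came from RefSeq assembly R64. Of the gene regions, 5506 matched a gene that does not overlap its next neighbour there, and the other gene regions used for comparison are those of them that are no member and border no Pol III gene. No coordinates or sequences are printed. The script was tested on simulated shifts. Members, lists and comparisons were chosen with earlier results of these data known. Named members were the 3 highest and 3 lowest in level at 0 min or in change for any protein, those past 2-fold, those beside a Pol III gene, and the 3 widest and 3 narrowest pairs. The alternatives were another zero point, equal spread, another fold limit and subsets of members.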

Additional observations from a re-analysis of the deposited data

How the results depend on the processing

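Leaving out members, or genes with either flank, beside a Pol III gene removed none, since 0 border one, so these alternatives test nothing. Of 50 results, centring each array on the median of all features moved 8, as judged by 0.1 on the log2 scale or 1.5 times for a count. The median level at 30 min was then 0.20 for Bdp1 and -0.074 for Tau95, and the median change -0.063 for Brf1 and -0.37 for Tau95. Past 2-fold, Brf1 had 3 members higher and 4 lower and C160 had 1 and 2. With arrays of equal spread the levels at 30 min were 0.17 for Bdp1 and -0.077 for Tau95. Past 2-fold, Tau95 had 1 member higher, C160 had 1 higher and 4 lower, Brf1 had 2 and 5, and Bdp1 had 0 higher. The gap between upstream and downstream medians was 1.17 for Brf1 at 0 min, and that of the changes -0.14 for Brf1 and -0.047 for Tau95. The differences between changes were -0.066 for Brf1 minus Bdp1, -0.16 for C160 minus Bdp1 and -0.078 for Tau95 minus Brf1. Over the 46 members with all values, levels at 0 min were 0.45 for Tau95, 0.19 for C160, 0.23 for Brf1 and 0.23 for Bdp1, and at 30 min 0.26 for C160 and 0.19 for Tau95. The Bdp1 gap between sides was then 0.40 at 0 min and 0.20 for the change. Without the RPL25 region, 1 member was higher for C160. With exact spelling only (50 members), the Brf1 gap at 30 min was 0.50. With a 1.5-fold limit 4 members were higher and 4 lower for Bdp1, 9 and 9 for Brf1, 4 and 8 for C160, and 7 and 6 for Tau95. No share of all features is given at this limit, nor for the 2-fold counts with centred arrays or equal spread. All these counts therefore show only how the numbers move with the setting. Members at 0 or above at 0 min had a Tau95 change of -0.36, but this choice uses the value that the change subtracts. The 19 members below 0 at 0 min had 0.09. All features had 0.01 where they began at or above 0 and 0.36 where they began below it. Apart from the alternatives' construction, the cause of these shifts was not tested. The Tau95 median change was negative under each setting tried, but not over the members that began below 0. With either scaling the small Brf1 median change was below 0 and higher Brf1 calls no longer outnumbered lower ones. The comparison of sides with equal spread and the alternatives without RPL25, with exact spelling and with members at 0 or above were chosen after seeing the data. No paired analysis was possible because each group has 1 sample.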
